A study of Rattus norvegicus with 8 samples.

Results

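Whole transcriptome termini site sequencing (WTTS-seq) counts the ends of RNA where a poly(A) tail begins, so each site in its table is a cluster of such ends on one strand of the genome. The sites described here are the low-abundance sites without an assigned gene. The sites were chosen by their gene field, their position and their summed read count. They are the named sites of the table that had no gene, lay outside the mitochondrial chromosome and had under 300 reads summed over the 8 libraries. Of 73922 sites in all, 7572 met this rule (10.2%). They held 540139 reads, which was 4.05% of the reads in the table. Since the read total was part of the choice, their low level is a description and not a result.

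The libraries came from the hypothalamus, the brain region that governs appetite and energy balance, of adult male Long-Evans rats. In the control group, 4 rats were kept on standard chow with 0.51 kcal/g from fat. The 4 rats of the diet-induced obesity group were given a high fat diet with 1.71 kcal/g from fat. Brains of both groups were collected after 36 days on the diets. The diets were set for whole animals, and the libraries hold RNA of a whole region, so fewer cells of a type and less RNA per cell cannot be told apart.

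Most messenger RNAs are cut and given a poly(A) tail about where a polyadenylation signal lies, and many genes have several such sites, which give transcripts with 3′ untranslated regions (UTRs) of different length. In the brain, 3′ UTRs are often longer than the annotated gene end, and a site past that end can be left without a gene. Sites without a gene can also end long noncoding RNAs, which are often missing from annotations, or arise where the primer binds a run of A bases inside an RNA. The table does not tell these kinds of site apart.

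Library depth ran from 1417531 to 1957726 reads. A site with 0 reads in a library could have had up to 3 reads there, which is 1.53 to 2.12 CPM before further scaling. CPM is the read count scaled to a common library size. Control library 1 stood apart in detection, with 19.2% of the low-abundance sites without a gene at 0 reads. Obesity library 1 had 13.5% of them at 0, and the other 6 libraries had 5.55% to 9.65%. The low-abundance sites with a gene had the same feature, with 21.8% and 15.8% at 0 in these libraries and 5.95% to 9.66% in the others. Of 20 listed genes of hypothalamic neurons, 15 were in the table. Their summed level was 1012 to 1499 CPM in control and 820 to 1151 CPM in obesity, while Npy, Ghrh, Kiss1, Tac3 and Gnrh1 were absent from it. Of the 5 genes of the anterior pituitary, 3 were in the table, at 15.8 to 44.5 CPM in control and 5.05 to 108 CPM in obesity. Of the 3 genes of the choroid plexus, 1 was in the table, at 0 to 1.32 CPM and 0 to 80.7 CPM. The part of neighbouring tissue in the results below was not tested.

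Low-abundance sites without a gene were small and narrow. The median site had 51 reads over the 8 libraries, with quartiles of 38 and 84 reads, and the lowest total was 30 reads, which was also the lowest total of any site in the table. Their width, from the first to the last base of the cluster, had a median of 11 bases with quartiles of 4 and 21 bases. A width of 0, where all reads ended on the same base, was seen at 357 sites (4.71%). By comparison, the 60894 sites with a gene and under 300 reads had a median width of 11 bases, and 4.08% of them had a width of 0. The 436 sites without a gene and with 300 reads or more were wider, with a median of 23 bases. In width, the sites without a gene were thus close to sites with a gene of like abundance.

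Width went with the number of reads in both classes, as a range over more read ends can by counting alone. The sites without a gene had a median width of 8 bases at 30 to 39 reads, 12 bases at 60 to 99 reads and 20 bases at 200 to 299 reads. The sites with a gene went from 8 to 18 bases over these classes. Detection went the same way, and it too can rise with reads by counting alone. At 30 to 39 reads, 26.3% of the sites without a gene had a read in all 8 libraries, and at 200 to 299 reads 97.5% did. The shares for sites with a gene were 20.1% and 96.1%. Taken over all read classes, 4138 sites without a gene (54.6%) were seen in every library, and the fewest libraries with a read at any of them was 2.

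**Figure D1:**
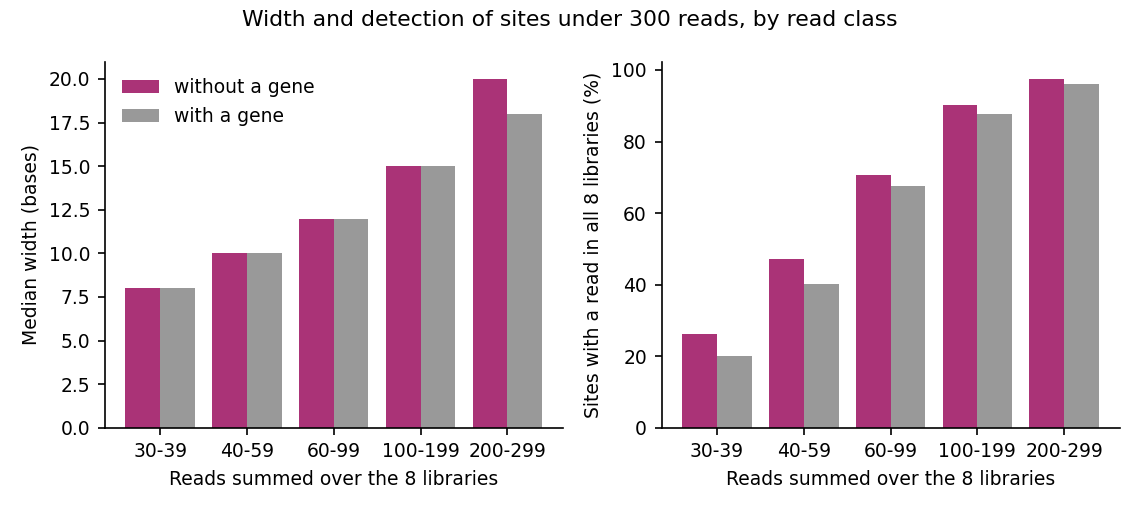
Median width in bases (left) and the percent of sites with a read in all 8 libraries (right), by the reads summed over the libraries, for sites under 300 reads without a gene and with a gene. Both rise with reads in both classes, from a median of 8 bases to 20 bases without a gene and to 18 bases with one.

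The widest site of all, of 161 bases, lay on chromosome 7 (minus strand, 70513503 to 70513664), 0.319 kb downstream of Kif5a, a neuronal kinesin motor gene. It had 24, 9, 14 and 35 reads in control and 44, 16, 23 and 28 in obesity.

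Some sites rested mainly on a single rat. At 376 sites without a gene (4.97%), over 50% of the reads came from 1 library, against 5.4% of the low-abundance sites with a gene. These sites were uneven over the libraries, with 93 in obesity library 1, 89 in obesity library 4, 80 in obesity library 3 and 65 in control library 1. The other 4 libraries had 3 to 25 each.

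The 3 sites with the most reads all had 299, at the limit of the rule. The first lay on chromosome 6 (plus strand, 97233066 to 97233089, Rnor_6.0), 4.37 kb downstream of a site of the uncharacterized gene LOC102551114, with 36, 40, 33 and 31 reads in the control libraries, in the order of their numbers, and 40, 48, 39 and 32 in the obesity libraries. Its reads were even over the 8 rats. Another lay on chromosome 12 (plus strand, 22607368 to 22607403), 61.2 kb upstream of a site of Ap1s1, an adaptor subunit of clathrin-coated vesicles, where control libraries had 27 to 37 reads and obesity libraries 28 to 54. The last lay on chromosome 17 (minus strand, 1093579 to 1093601), 10.2 kb upstream of Ptch1, the receptor of hedgehog ligands, with 12 to 48 and 32 to 50 reads. Just outside the rule were 3 sites with 300 reads, on chromosomes 18, 1 and 15. The site on chromosome 18 (plus strand, 81754919 to 81754939) was less even, with 79, 23, 13 and 23 reads in control and 69, 19, 41 and 33 in obesity.

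These sites were spread over all chromosomes, but not in the proportion of sites with a gene. Chromosome 1 had 1149 of them (15.2%), against 11.2% of the sites with a gene. Chromosome 11 held 529 (6.99%) against 3.27%, and chromosome 17 held 309 (4.08%) against 2.82%. Chromosomes 4, 8, 10 and 20 went the other way. Chromosome 4 had 330 (4.36%) against 7.35%, chromosome 8 had 297 (3.92%) against 5.69%, and chromosome 10 had 324 (4.28%) against 7.22%. Of each 100 sites on chromosome 11, 19.7 were low-abundance sites without a gene, and on chromosome 20 only 6.12 were. On the Y chromosome there were 11, all on the plus strand, beside 5 sites with a gene. A further 52 sites lay on 35 unplaced contigs, where no distance could be given. The strands carried 3583 plus and 3989 minus sites. Strand balance was local, with 379 of the 529 sites on chromosome 11 on the minus strand and 166 of the 253 on chromosome 14 on the plus strand. Several sites can come from the same transcript, so these shares and strand counts do not rest on independent sites. On chromosome 17, a single stretch of the minus strand, described below, held 58 of the 309 sites.

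**Figure D2:**
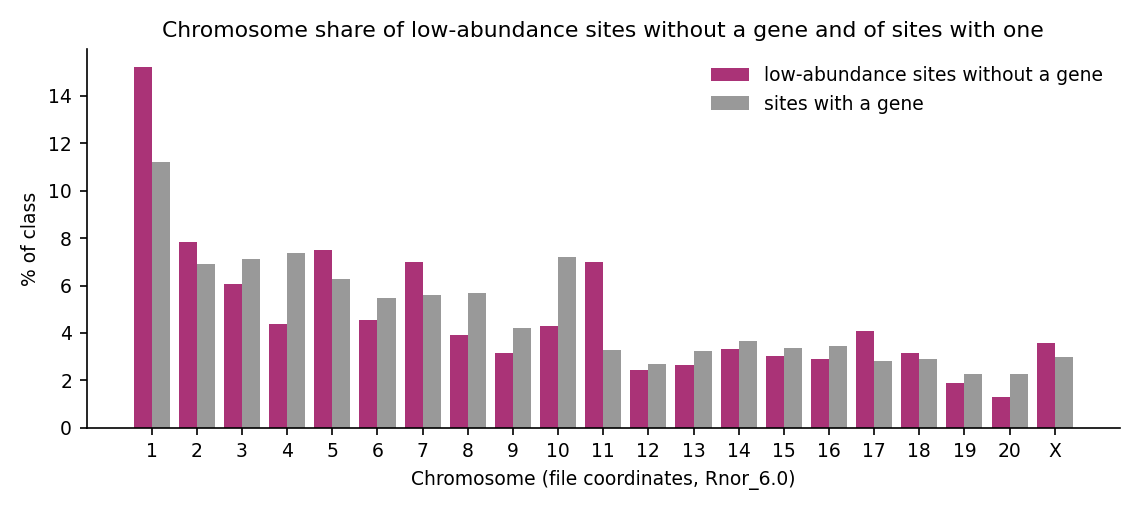
Percent of the low-abundance sites without a gene and of the sites with a gene that lay on each chromosome. Chromosome 11 held 6.99% of the sites without a gene and 3.27% of those with one, and chromosome 4 held 4.36% and 7.35%.

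The distance to the nearest site with a gene on the same strand had a median of 47.5 kb, with quartiles of 11.4 and 161 kb, over the 7520 sites that had one. The closest was 29 bases away and the farthest 3.79 Mb. There were 145 sites (1.91%) within 1 kb and 1592 (21%) at 1 to 10 kb, numbers that can depend on how sites were assigned to genes. A further 3175 (41.9%) lay at 10 to 100 kb, and 2608 (34.4%) over 100 kb away. Within 10 kb the side mattered. Downstream of the gene site, in the sense of transcription, there were 102 sites under 1 kb and 1227 at 1 to 10 kb, and upstream there were 43 and 365. Beyond 10 kb the sides were about even, with 1537 downstream and 1638 upstream at 10 to 100 kb, and 1262 and 1346 over 100 kb. In all, 1329 sites (17.6%) lay within 10 kb downstream of a site with a gene. The abundant sites without a gene were closer, with a median of 21.2 kb and 135 of 436 (31%) within 10 kb downstream.

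**Figure D3:**
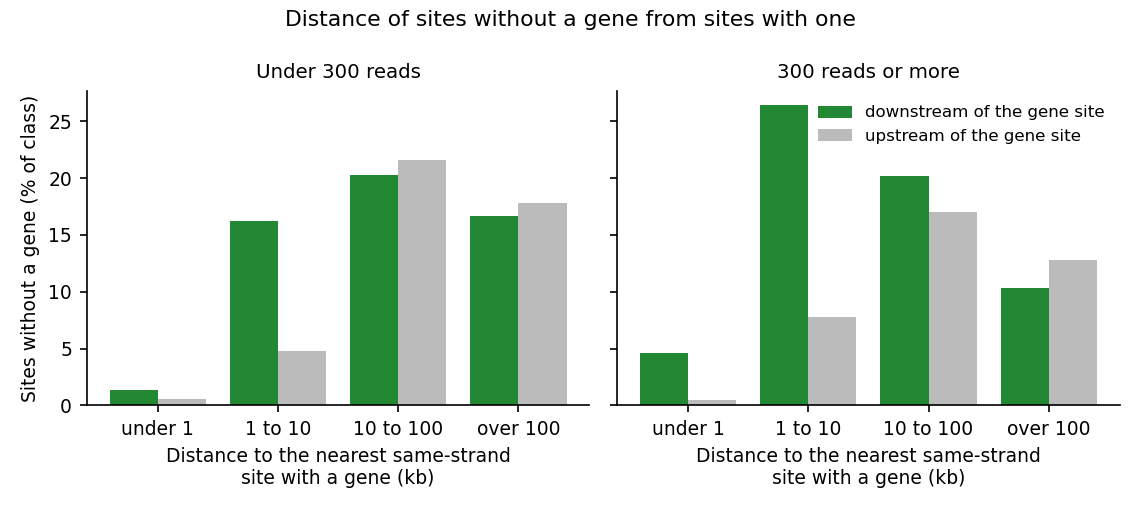
Percent of the sites without a gene by distance, in kb, to the nearest same-strand site with a gene, downstream or upstream of it, for sites under 300 reads (left) and with 300 reads or more (right). At 1 to 10 kb the downstream bar is higher than the upstream bar in both panels, at 16.2% against 4.82% for sites under 300 reads.

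Few of the 7572 sites lay between adjacent sites of the same gene symbol. On the same strand 4 did, 2 at Soga3, 1 at Syne1 and 1 at Tenm1, and on the other strand 25 did. Counted by gene entry and not by symbol, these numbers were 0 and 13. The sites were chosen for having no gene, and a site within a gene can be assigned to it. Low counts within or near genes are therefore a description and not a result. On the other strand, 74 (0.977%) lay within 1 kb of a site with a gene and 609 (8.04%) within 10 kb. For 1988 sites (26.3%) the nearest site with a gene was on the other strand. There were 2130 sites over 100 kb from any site with a gene on both strands. The 3 most remote lay on the minus strand of the X chromosome, next to Nap1l3, Chm and Pcdh19. At 88562075 to 88562076 there were 5, 4, 11 and 1 reads in control and 7, 6, 4 and 4 in obesity. The other 2, at 98847945 to 98847957 and 98847978 to 98847979, lay side by side with 116 and 144 reads.

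Most of the sites were not scattered singly, though the spacing of sites with a gene was not compared. Of the 7572, 2340 (30.9%) had another within 1 kb on the same strand, and the median gap to the nearest was 4.07 kb. When same-strand sites up to 20 kb apart with no site with a gene between them were joined into runs, 5086 sites (67.2%) fell into runs of at least 2. The other 2486 stood alone. There were 78 runs of 10 or more sites, and they held 1406 sites. The 10 longest held 454 (6%). Several sites of a run can come from the same transcript, so they are not independent.

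The longest run, of 62 sites over 281 kb, lay on the plus strand of chromosome 1 (85681185 to 85961992) between Timm50, a subunit of the mitochondrial import channel, and Sars2, a mitochondrial seryl-tRNA synthetase. In GRCr8, a newer rat assembly that was used for names and gene order only, 18 named protein-coding or miRNA genes lie between these genes on either strand. Only 6 of them, Supt5h, Med29, Paf1, Samd4b, Lrfn1 and Mrps12, had a site of their own in the table. In the Rnor_6.0 coordinates of the sites, a plus-strand site of Samd4b lay before Timm50, outside the run. The gene order of the newer assembly therefore does not hold for all of them, and which of them the run spans is not known. The run of 58 sites on the minus strand of chromosome 17 (78007490 to 78233006) between Nmt2 and Frmd4a was similar, with 10 such genes in the newer assembly, of which only Hspa14 had a site in the table.

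The run of 59 sites on chromosome 6 (plus strand, 133742363 to 133857033) lay between Mir370 and Mir376a. This is part of the imprinted Dlk1-Dio3 domain, where long noncoding RNAs from the maternal chromosome carry clusters of snoRNAs and miRNAs. GRCr8 has 144 genes there, of which 84 are snoRNAs, 17 miRNAs and 43 pseudogenes. None of the 17 miRNAs (0) had a site in the table. The run held 6466 reads, 1.2% of the reads at low-abundance sites without a gene, and 15 abundant sites lay within it. Other long runs lay between Mir137 and Dpyd on chromosome 2 (48 sites), LOC498084 and Zbtb20 on chromosome 11 (47), Zdhhc17 and Nav3 on chromosome 7 (45), Slitrk1 and Spry2 on chromosome 15 (36), Maats1 and Fstl1 on chromosome 11 (29), and Nmd3 and Bche on chromosome 2 (28).

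Sites within 10 kb downstream were found at 786 genes. Most of these genes, 525, had 1 such site and 34 had 5 or more. By biotype, 1192 of the 1329 sites lay downstream of sites of protein-coding genes, 75 of lncRNAs, 38 of miRNAs and 18 of pseudogenes. The strand used was that of the sites, and a gene can have sites on both strands, as Grik5, Napsa and Dyrk1b did. Some of the 1329 may thus follow a site antisense to its gene and not lie past the gene's end. The gene with most was Slc1a2, which encodes the main glutamate transporter of astrocytes, with 18 sites at 0.942 to 6.69 kb past its nearest site on chromosome 3 (plus strand, 92668697 to 92674460). Their median width was 27 bases, and they held 1256 reads, beside 3099 reads at the 28 sites assigned to the gene. Mir384 on the X chromosome followed with 13 sites and Alas2, the erythroid enzyme that starts haem synthesis, with 9. Epha6, an ephrin receptor, Epm2a, which encodes the glycogen phosphatase laforin, Mir370 and LOC100912195 had 8 each. Clmn, Fnbp1, a membrane-bending F-BAR protein, and LOC108349991 had 7 each. At Alas2 the 9 sites held 796 reads, against 224 at the 3 sites assigned to the gene.

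Of 72 listed genes for cell types and imprinting, 56 were in the table and 6 had a low-abundance site without a gene within 10 kb downstream. Apart from Slc1a2 and Alas2 these were Mobp, a myelin protein gene of oligodendrocytes, with 3 sites, the imprinted genes Peg10 with 2 and Dlk1 with 1, and Rbfox3, which encodes the neuronal nuclear marker NeuN, with 1. None of the 15 genes of hypothalamic neurons in the table had one (0). The share over all genes was not worked out, and the lists are short. No trait of the listed genes is therefore read from these counts. For Dlk1 the site lay 0.466 kb past the gene's nearest site and had 12, 5, 1 and 7 reads in control and 7, 2, 3 and 0 in obesity.

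The diets were compared next, to ask whether these sites differed in level between obesity and control. Low-abundance sites without a gene took 3.93%, 3.92%, 3.68% and 4.04% of the reads in control, and 4.29%, 3.82%, 4.17% and 4.4% in obesity. In each library counting alone gives a 95% Wilson interval of at most 0.0311 percentage points to either side. The mean was 3.89% ± 0.15 (SD, n = 4) in control and 4.17% ± 0.253 (SD, n = 4) in obesity, a difference of 0.28 percentage points. Obesity was higher in 3 of the 4 same-numbered pairs, and the groups overlapped through obesity library 2. The mitochondrial share of reads moved as well, at 5.32% to 8.27% in control and 3.85% to 6.99% in obesity, and over reads outside the mitochondrial chromosome the difference was 0.224 percentage points. The number of these sites with a read was 6116 to 7152 in control and 6553 to 7021 in obesity, with no separation of the groups.

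The part of these reads close behind a site with a gene was compared as well. The share of these sites' reads that lay within 10 kb downstream of a site with a gene was 19.6%, 21.3%, 22.4% and 20.4% in control and 15.8%, 20.8%, 17.6% and 17.6% in obesity, with 95% Wilson intervals of at most 0.358 percentage points to either side. It was 20.9% ± 1.21 (SD, n = 4) in control and 18% ± 2.09 (SD, n = 4) in obesity. The share was lower in obesity in all 4 same-numbered pairs, and the groups overlapped through obesity library 2 (20.8%), which was above control libraries 1 and 4. As a percent of the whole library, the sites near a gene took 0.813% ± 0.0301 of reads in control and 0.747% ± 0.0518 in obesity, while the other low-abundance sites without a gene took 3.08% ± 0.157 and 3.43% ± 0.281 (SD, n = 4 each). The abundant sites without a gene within 10 kb downstream took 0.84% ± 0.137 and 0.685% ± 0.103. Since the sites were chosen with results of these libraries known, no p-value is given for these sums.

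**Figure D4:**
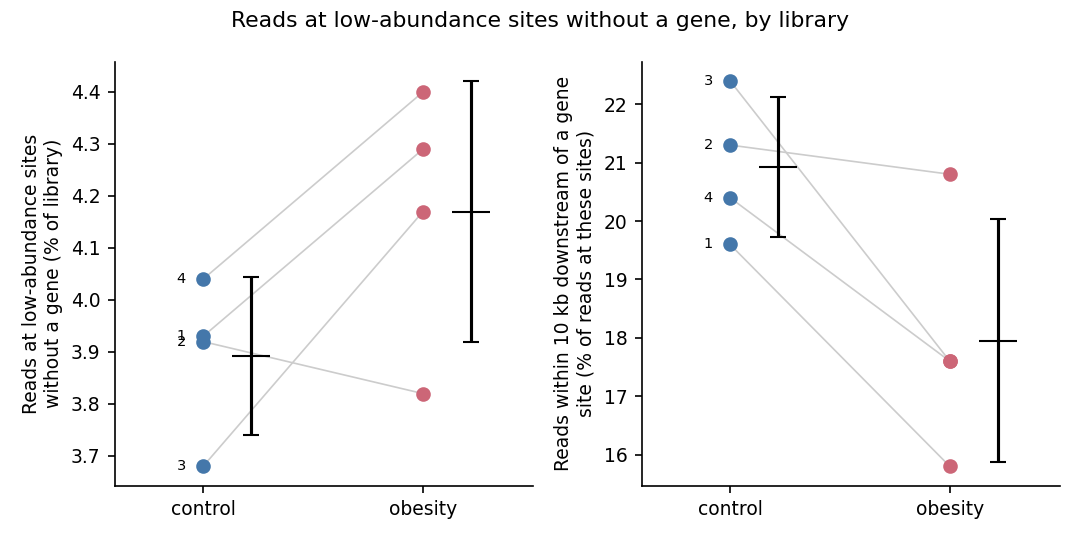
Reads at low-abundance sites without a gene as a percent of the library (left), and the percent of those reads within 10 kb downstream of a site with a gene (right). Points are libraries, lines join libraries with the same number, and bars show the mean and SD (n = 4). The axes do not start at 0. On the right all 4 lines fall from control to obesity, while obesity library 2 stays at 20.8%.

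Site by site, few passed even an unadjusted threshold. In the edgeR quasi-likelihood test over all 73922 sites, 31 of the 7572 (0.409%) had an unadjusted p under 0.01, against 0.502% of all sites. Of the 31, 20 had more reads in obesity (0.264%, against 0.289% of all sites) and 11 had fewer (0.145%, against 0.212%). No site (0) passed an adjusted p of 0.1 in edgeR, against 1 of all sites (0.00135%). At an unadjusted p under 0.05 there were 216 (2.85%, against 3.14% of all sites). The libraries of the groups did not overlap in CPM at 212 sites (2.8%, against 3.11%), of which 98 were higher in obesity (1.29%, against 1.43%) and 114 lower (1.51%, against 1.69%). Among sites with a gene and under 300 reads, the share with an unadjusted p under 0.01 was 0.447%. These counts overlap with each other, so no trait of the low-abundance sites without a gene is read from them. The median log2 fold change was 0.08 over the 7572 sites, with quartiles of -0.42 and 0.62, and 0.05 over all sites.

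Other settings changed the counts. With the library number as a block, 79 sites had an unadjusted p under 0.01 (1.04%, against 1.64% of all sites), 43 higher (0.568%, against 0.702%) and 36 lower (0.475%, against 0.94%), and 0 passed an adjusted p of 0.1 (against 0.00541%). DESeq2 gave 62 of 7516 sites at an unadjusted p under 0.01 (0.825%, against 0.933%) and 1 at an adjusted p under 0.1 (0.0133%, against 0.0136%). The balance of directions turned when obesity library 1 was left out (13 higher and 21 lower, while 0.452% of all sites passed) and when obesity library 2 was (26 higher and 30 lower, while 1.09% of all sites passed).

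By distance, the median log2 fold change was -0.17 at the 102 sites under 1 kb downstream of a gene site and -0.11 at the 1227 sites at 1 to 10 kb downstream. Upstream it was -0.06 at the 43 sites under 1 kb and 0.05 at the 365 sites at 1 to 10 kb. In the classes beyond 10 kb the medians were 0.10 to 0.16. The share with an unadjusted p under 0.01 was 0.98% under 1 kb downstream (0 higher, 1 lower) and 2.33% under 1 kb upstream (0 higher, 1 lower). At 1 to 10 kb it was 0.652% downstream (4 higher, 4 lower) and 0.274% upstream (1 higher, 0 lower). At 10 to 100 kb it was 0.39% downstream (2 higher, 4 lower) and 0.488% upstream (8 higher, 0 lower). Over 100 kb it was 0.396% downstream (4 higher, 1 lower) and 0.0743% upstream (1 higher, 0 lower). Over all sites it was 0.502%, with 0.289% higher and 0.212% lower. These counts are small, and the classes were not tested against each other. Downstream sites were also set beside the gene whose site they followed. Over 866 sites whose gene had at least 300 reads, the median log2 fold change was -0.16 for the sites and 0.01 for the summed gene. Across these sites the 2 values had a Pearson correlation of 0.01 and a Spearman correlation of 0.02, and sites of the same gene share libraries and the gene's value. Counting error at sites with so few reads can by itself bring a correlation near 0. These values therefore do not tell whether the sites follow their gene.

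Some of the 31 lay in the same run, so they are not 31 independent sites. None of the sites named next passed an adjusted p of 0.1 in edgeR, with the block or in DESeq2, and DESeq2 gave no adjusted p for some of them.

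The sites with more reads in obesity are given first. On the X chromosome (minus strand, 71320953), 8.29 kb upstream of Zmym3, a zinc finger protein of chromatin complexes, the 4 control libraries had 0 reads and the obesity libraries had 13, 4, 11 and 9. On counting alone this was at least 11.3-fold higher in obesity, with the control group set at 3 reads in all (unadjusted p = 0.00107, adjusted p = 1, edgeR). On chromosome 3 (plus strand, 134656655 to 134656670), between Ndufaf5, an assembly factor of respiratory complex I, and Flrt3, an adhesion protein of growing axons, the control libraries had 0 reads and the obesity libraries 16, 2, 11 and 5. Here the level was at least 10.4-fold higher on the same floor (unadjusted p = 0.00222, adjusted p = 1, edgeR). Without obesity library 1 the bounds were at least 9.83-fold for the site on the X chromosome and at least 7.37-fold for this site. A last site on chromosome 3 (minus strand, 79709502 to 79709511), 12.2 kb downstream of the complex I subunit gene Ndufs3, had 3, 1, 0 and 1 reads in control and 21, 6, 16 and 14 in obesity. Its log2 fold change was 3.28 (SE 0.90, unadjusted p = 0.00244, adjusted p = 1, edgeR). For these sites with more reads in obesity the adjusted p was 0.327 to 0.435 in edgeR with the block.

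The 5 named sites with fewer reads in obesity are given next. A site of chromosome 13 (plus strand, 96594750), 11.7 kb downstream of LOC108352622, had 28, 2, 6 and 11 reads in control and 0 in all 4 obesity libraries, at least 17.1-fold lower (unadjusted p = 0.000806, adjusted p = 1, edgeR). A site of chromosome 16 (plus strand, 61069839), 2.12 kb downstream of Tnks, which encodes the poly-ADP-ribosyltransferase tankyrase, had 27, 6, 2 and 4 reads in control and again 0 in the obesity libraries, at least 14.2-fold lower (unadjusted p = 0.00172, adjusted p = 1, edgeR). Control library 1 gave most of the reads at both sites, and without it the bounds were at least 9.56-fold and at least 6.04-fold lower.

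More even over the rats was the site on chromosome 2 (minus strand, 41560998), 8.62 kb downstream of Rab3c, a small GTPase of synaptic vesicles. It had 20, 26, 19 and 21 reads in control and 2, 5, 4 and 8 in obesity, a log2 fold change of -2.26 (SE 0.59, unadjusted p = 0.00184, adjusted p = 1, edgeR). The level was 13.5 ± 1.58 CPM in control and 2.78 ± 1.49 CPM in obesity (SD, n = 4 each). On the same chromosome (minus strand, 140571938), 11.1 kb downstream of the lysine methyltransferase gene Setd7, there were 32, 52, 21 and 27 reads in control and 6, 10, 9 and 15 in obesity. That log2 fold change was -1.79 (SE 0.49, unadjusted p = 0.00263, adjusted p = 1, edgeR). The last site (chromosome 16, minus strand, 83165295) lay 50.3 kb downstream of Ankrd10 and had 17, 18, 9 and 7 reads in control and 3, 1, 2 and 3 in obesity, a log2 fold change of -2.54 (SE 0.75, unadjusted p = 0.00443, adjusted p = 1, edgeR). For these 5 sites the adjusted p was 0.241 to 0.554 with the block.

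In the 9 long runs named above the log2 ratio of the group means, obesity over control, was -0.11 to 0.52. The highest was between Nmt2 and Frmd4a, where the summed level was 334, 387, 282 and 435 CPM in control and 589, 443, 384 and 648 CPM in obesity, or 360 ± 66.1 and 516 ± 123 CPM (SD, n = 4 each). The groups overlapped there, and obesity was higher in all 4 same-numbered pairs. In this run 46 of 58 sites had a log2 fold change above 0, against 54.6% of the low-abundance sites without a gene and 52.4% of all sites. Sites of a run share the same 8 libraries and are not replicates, and the run is given here because its ratio was the highest of the 9. In the imprinted run between Mir370 and Mir376a the sum was 296, 494, 507 and 617 CPM in control and 331, 512, 495 and 645 CPM in obesity. Libraries with the same number were alike in this run, at 296 and 331 CPM for number 1 and 617 and 645 CPM for number 4. Over these 9 runs, 0 sites had an unadjusted p under 0.01 in edgeR.

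Downstream of the named genes the groups overlapped at every gene. The 18 sites past Slc1a2 summed to 87.4 ± 26.6 CPM in control and 103 ± 30.7 CPM in obesity, and the 9 past Alas2 to 46 ± 7.05 and 71 ± 25.2 CPM (SD, n = 4 each). The listed genes of red blood cells themselves summed to 16.7 to 41.8 CPM in control and 11.3 to 52.7 CPM in obesity, and their part was not tested. The sites past Epha6 summed to less in obesity, with 34.3, 44.9, 32.3 and 33.6 CPM in control and 21.5, 37.4, 18.2 and 7.85 CPM in obesity. Obesity library 2 lay within the control range. Past Fnbp1 the values were 108, 73.1, 89.6 and 86.3 CPM in control and 57.2, 75.5, 56.7 and 65.6 CPM in obesity, and again obesity library 2 lay above control library 2. The 3 sites past Mobp summed to 17 ± 3.43 and 10.9 ± 4.25 CPM (SD, n = 4 each). All 8 listed genes of oligodendrocytes were in the table and summed to 13694 to 20496 CPM in control and 10073 to 17958 CPM in obesity, and their part was not tested. At each of these 5 genes, 0 sites had an unadjusted p under 0.01 in edgeR.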

How the data were processed

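The deposited table gave read counts per site and library, not normalized, made by the authors from WTTS-seq libraries of 8 rat hypothalami. The submitters' processing notes name Bowtie2 2.2.3 and Rnor_6.0, and how sites were clustered and assigned to genes is not given in the sources used here. The paper linked to the libraries describes another exposure than the labels, so groups are those of the labels and only its style was followed. A line without a site name was left out, and all 7572 sites met a minimum of 16 reads. A mark in the symbol field at 256 sites was ignored. Priming at A-rich stretches and amplification without molecular identifiers can add reads, so intervals and floors cover counting error only.

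Counts of all 73922 sites were fitted in edgeR 4.0.16 (TMM, robust quasi-likelihood F test, R 4.3.3) and p-values were adjusted over all of them by the Benjamini-Hochberg method, and the script was tested on simulated data. Alternatives were DESeq2 1.42.0, its size factors, filterByExpr, the library number as a block, other read limits and distances, and leaving out each library. CPM are counts scaled to the TMM-adjusted library size. In the titles, libraries of each group are numbered 1 to 4. After the group means were taken off log2 CPM (sites with a mean of at least 10 reads), values correlated at 0.365 to 0.519 between same-numbered libraries and at -0.265 to -0.019 between others, so the numbers pair the libraries. The reported fit has no block, and the blocked values stand beside a result where they change it. What libraries of the same number have in common is not given in the labels. The labels do not tell how libraries were prepared apart, so the spread between them may in part be technical.

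The sites, gene lists and tests were chosen with earlier results of these data known, and for values summed over the sites no test is given, although a permutation test was planned. Named are the 5 higher and 5 lower sites of smallest unadjusted p (under 0.01, no overlap of CPM), 3 sites each just inside and outside the read limit, the 3 widest and the 3 most remote sites, the 10 genes with most sites within 10 kb downstream, and listed genes with such a site. Of the sites this rule names, those of 1 run, and that run itself, are not reported here. Runs were defined after the data were seen. GRCr8 gene names were matched by symbol, and for 2 of the 10 long runs a flanking gene had no match.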

Additional observations from a re-analysis of the deposited data

Results flagged for a closer look

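Single libraries lay far from the other 3 of their group in 4 of 56 checks of per-library values, where chance gives about 1 in 20. Control library 1 had 6116 low-abundance sites without a gene with a read, against 7013 to 7152 in the other controls. At the site of chromosome 16 at 61069839, control library 1 was at 15.2 CPM, against 1.47 to 3.45 CPM. The sites past Epha6 summed to 44.9 CPM in control library 2, against 32.3 to 34.3 CPM. Those past Clmn summed to 12.7 CPM in obesity library 3, against 44.3 to 46.5 CPM in the other obesity libraries. The cause was not tested in any of these.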

How the results depend on the processing

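Of the low-abundance sites without a gene, 31 had an unadjusted p under 0.01, against 0.502% of all sites. The count was 11 after filterByExpr, which left 2063 of them (0.723% of all sites kept), 62 with DESeq2 (0.933% of all sites) and 28 to 56 with a library left out (0.367% to 1.09% of all sites). The highest count and the highest share of all sites were both without obesity library 2. With the replicate block the count was 79 (1.64% of all sites), and 29 of the 31 were among them. All 31 were among the 62 of DESeq2, and 16 to 23 were kept with a library left out. At an adjusted p under 0.1 the count was 0 in every edgeR fit and 1 in DESeq2. The block changed no call at an adjusted p. The median log2 fold change was 0.04 to 0.13 with a library left out.

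The share of these sites' reads within 10 kb downstream of a gene site differed by -2.94 percentage points, by -0.893 within 2 kb, and by -3.89 to -2.22 with a library left out. The share of reads at the sites differed by 0.28, and by 0.203 to 0.397 with a library left out. The number with a read differed by -8.25, by 131 at a minimum of 3 reads, by -39.8 after thinning, and by -255 to 90.2 with a library left out, so it had no stable sign. Depth limits all of this, since the median site had 51 reads over 8 libraries.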

Other observations

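Chromosomes differed in how close these sites lay to genes. On chromosome 12, 29.9% of its 184 low-abundance sites without a gene were within 10 kb downstream of a site with a gene, and on chromosome 10 26.2% of 324 were. On chromosome 11 the share was 8.32% of 529, and on chromosome 16 10% of 219. The median distance was 17.2 kb on chromosome 20 and 21 kb on chromosome 10, against 94.9 kb on chromosome 11 and 95.1 kb on chromosome 5. No test was made over chromosomes.

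Some neighbouring genes had more reads at low-abundance sites within 10 kb downstream than at the sites assigned to them. The 13 sites past Mir384 held 1481 reads, against 208 at its 2 assigned sites, and the 8 past Epm2a held 863, against 207. Past Epm2a the summed level was 67, 75.9, 105 and 60.6 CPM in control and 46.4, 67.9, 68.8 and 34.2 CPM in obesity, with overlapping groups. The 2 sites past the imprinted gene Peg10 had 3, 30, 26 and 30 reads in control and 3, 18, 21 and 14 in obesity, so both libraries numbered 1 were low.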
